A study of Caenorhabditis elegans with 2 samples.

Results

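The genes described here are 10 protein-coding genes of Caenorhabditis elegans whose promoters hold some of the nuclear ChIP-seq peaks of highest signal for the zinc finger protein W03F9.2. They are sqd-1, Y73B6BL.29, egl-30, C53H9.4, cdc-48.1, tasp-1, K01G5.10, Y17G9B.5, K11H12.8 and Y71H2AM.20, out of 19985 protein-coding genes in the annotation. Each listed gene has a peak summit between 1000 bp upstream and 200 bp downstream of its annotated start. The genes were chosen by the signal of that peak in the optimal set, which was among the highest. Not every gene with such a peak is listed. Signal and rank are therefore given as a description with no test. The 10 genes share 8 peaks, since egl-30 and C53H9.4 hold the same summit, as do tasp-1 and K01G5.10. These 8 are among 2389 nuclear peaks of the optimal set, the peaks kept by the authors' IDR step, and among the 1663 of those with a summit in a promoter.

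ChIP-seq recovers the DNA bound by a chosen protein and sequences it. Whole worms at the L4/young adult stage, of mixed sex, gave 2 biological replicates of 1 group. All animals were of strain OP215, which carries unc-119(ed3) on chromosome III and the transgene insertion wgIs215 for tagged W03F9.2. The age of the worms is given as unknown, and nothing says how the replicates were grown. The antibody field of the labels names W03F9.2 and their description names eGFP-W03F9.2, so which of them was precipitated is not settled. No untagged worms are among the samples. Signal is the authors' own value in the units of their peak caller, values of different lists are not on a common scale, and read depth is unknown. All 2409 optimal-set peaks were the top of the list made from both replicates together (the pooled list), so the replicates are not independent of the choice of genes.

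RefSeq gives the product of W03F9.2 a domain of the C2H2 type. Zinc fingers of that type bind DNA at short sequence words in many proteins. Peaks of such proteins in worms often lie just upstream of gene starts, and a single summit can lie in promoters on both strands when the genes face away from each other. The genes here have unlike roles. sqd-1 encodes an RNA-binding protein with RRM domains, named after Drosophila squid. egl-30 encodes the Gq alpha subunit, which in worm neurons and muscle promotes transmitter release and egg laying. The product of cdc-48.1 is a hexameric ATPase of the AAA family, which pulls ubiquitin-marked proteins out of complexes and membranes.

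The sequence at the summits is shown first, because short words recurred among these peaks. Each line gives the bases around a summit on the plus strand, read from the WBcel235 assembly and stopped short of annotated UTRs. The lines cover 7 of the 8 peaks, and the sequence at the egl-30 and C53H9.4 peak is not printed here. Capitals mark the words described after it, on either strand.
sqd-1, chrIV:6323812-6323932: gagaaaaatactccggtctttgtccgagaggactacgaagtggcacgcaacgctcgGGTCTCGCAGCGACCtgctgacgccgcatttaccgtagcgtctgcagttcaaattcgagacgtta
K11H12.8, chrIV:654866-654966: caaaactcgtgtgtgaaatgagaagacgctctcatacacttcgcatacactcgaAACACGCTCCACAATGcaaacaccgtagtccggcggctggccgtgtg
tasp-1, chrIII:10759196-10759296: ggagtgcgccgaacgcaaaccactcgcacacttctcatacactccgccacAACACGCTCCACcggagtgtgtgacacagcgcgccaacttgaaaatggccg
Y71H2AM.20, chrIII:2786006-2786106: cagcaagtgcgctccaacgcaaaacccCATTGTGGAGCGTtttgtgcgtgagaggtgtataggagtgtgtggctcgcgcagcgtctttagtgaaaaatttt
Y17G9B.5, chrIV:4750026-4750126: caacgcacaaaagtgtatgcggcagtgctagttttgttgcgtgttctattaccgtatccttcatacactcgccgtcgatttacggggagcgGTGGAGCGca
cdc-48.1, chrII:10563520-10563620: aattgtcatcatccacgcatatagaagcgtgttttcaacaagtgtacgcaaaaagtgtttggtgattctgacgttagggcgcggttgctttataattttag
Y73B6BL.29, chrIV:6321846-6321928: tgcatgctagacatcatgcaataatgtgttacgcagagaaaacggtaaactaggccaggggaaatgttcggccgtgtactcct

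The peak upstream of sqd-1 had the highest signal of all nuclear peaks. It spans 6323623 to 6324137 on chromosome IV, 515 bp, with the summit at 6323872 in intergenic sequence, 302 bp upstream of the start. Its signal was 934 in replicate 1, 1556 in replicate 2 and 2453 in the pooled list. It ranked 4 in all of these lists, behind mitochondrial peaks, and was the nuclear entry of highest signal in each.

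egl-30 and C53H9.4 share the peak of next highest signal. It spans 1835406 to 1835818 on chromosome I, 413 bp, with an intergenic summit at 1835611. That summit lies 50 bp upstream of the egl-30 start and 169 bp upstream of C53H9.4, a gene model of 93 bp on the same strand whose role is not given here. Signal was 727 in replicate 1 and 1139 in replicate 2, at ranks 8 and 6, and 1855 in the pooled list. In both replicates it was the nuclear entry next after sqd-1. The sqd-1 signal was 1.29 times that of egl-30 in replicate 1 and 1.37 times in replicate 2.

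These 2 peaks stood apart from all other nuclear peaks. The sqd-1 peak had 4.15 times and the egl-30 peak 3.14 times the pooled signal of the next nuclear peak, whereas that peak had only 1.09 times the signal of the one after it. Against the median nuclear peak of the optimal set (pooled signal 69.4), sqd-1 was 35.4-fold higher and egl-30 26.8-fold higher. The same folds over the nuclear peaks matched in each replicate were 31.9 and 24.8 in replicate 1, and 34.8 and 25.4 in replicate 2.

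**Figure D1:**
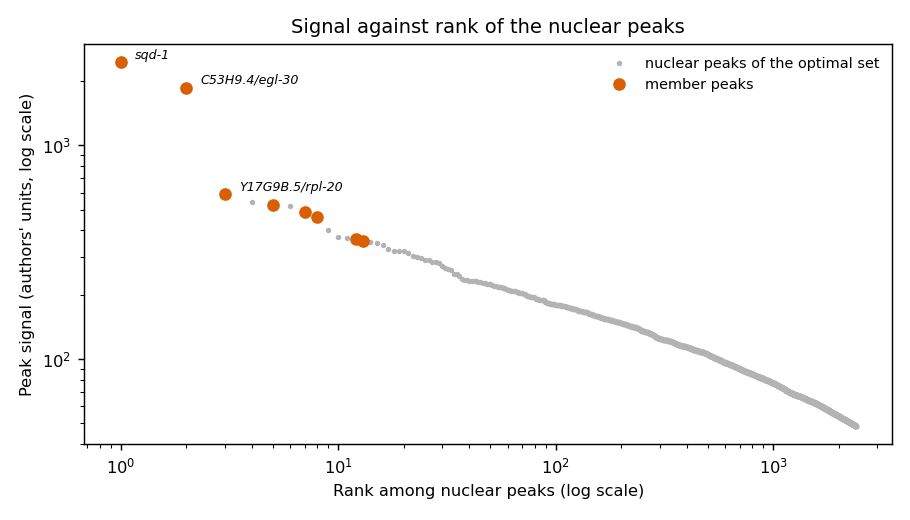
Pooled signal (authors' units) against rank for the 2389 nuclear peaks of the optimal set, both axes on log scales, with the 8 member peaks as large orange points. The peaks at sqd-1 (2453) and egl-30 (1855) lie above the curve that the other peaks follow from 591 downwards.

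Y17G9B.5 came next, with a peak of 308 bp at 4749920 to 4750227 on chromosome IV. The gene is annotated as the homologue of ECSIT, which in mammals helps assemble respiratory complex I in mitochondria. The summit at 4750076 lies 164 bp upstream of its start and 298 bp upstream of rpl-20, a ribosomal protein gene on the other strand. Signal was 239 in replicate 1 and 347 in replicate 2, at ranks 17 and 20, and 591 in the pooled list.

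The cdc-48.1 peak, at 10563446 to 10563701 on chromosome II, is 256 bp wide. Its summit at 10563570 lies 163 bp upstream of the start, and no other protein-coding promoter holds it. Signal was 202 in replicate 1, 323 in replicate 2 and 524 in the pooled list, and the ranks were 20 and 22 in the replicates.

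K11H12.8 shares its peak with a ribosomal protein gene too. The gene is annotated as a homologue of growth hormone-inducible transmembrane protein, an inner mitochondrial membrane protein in mammals. The peak spans 654756 to 655053 on chromosome IV, 298 bp, and its summit at 654916 is 474 bp upstream of K11H12.8 and 340 bp upstream of rpl-15 on the other strand, which is the nearer start. Signal was 176 in replicate 1 and 311 in replicate 2, at rank 24 in both, and 488 in the pooled list.

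Y73B6BL.29, annotated as a tRNA pseudouridine synthase, an enzyme that modifies uridines in tRNA, is the upstream neighbour of sqd-1 on the same strand. Its own peak at 6321781 to 6322025 is 245 bp wide, with the summit at 6321896, 33 bp upstream of its start and 1976 bp upstream of the sqd-1 summit. Signal was 179 in replicate 1 and 322 in replicate 2, at rank 23 in both, and 464 in the pooled list. Both promoters of this gene pair thus held a peak of their own, and the gene body of Y73B6BL.29 lies between them.

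Y71H2AM.20, annotated as an activator of a serine/threonine protein phosphatase, has a peak of 235 bp at 2785943 to 2786177 on chromosome III. The summit at 2786056 lies 108 bp upstream of its start and 796 bp upstream of nduc-2, a complex I subunit gene on the other strand. It falls in an annotated intron of cox-6B, and it was the only one of the 8 summits inside a protein-coding gene model. Signal was 130 in replicate 1 and 241 in replicate 2, at ranks 35 and 30, and 363 in the pooled list.

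tasp-1 encodes the homologue of taspase, a protease that in mammals cuts chromatin regulators of the MLL family, and K01G5.10 is annotated as a haloacid dehalogenase-like hydrolase. Their shared peak spans 10759102 to 10759371 on chromosome III, 270 bp. The summit at 10759246 lies 61 bp upstream of tasp-1 and 724 bp upstream of K01G5.10 on the other strand. Signal was 153 in replicate 1 and 203 in replicate 2, at ranks 26 and 39, and 358 in the pooled list.

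**Figure D2:**
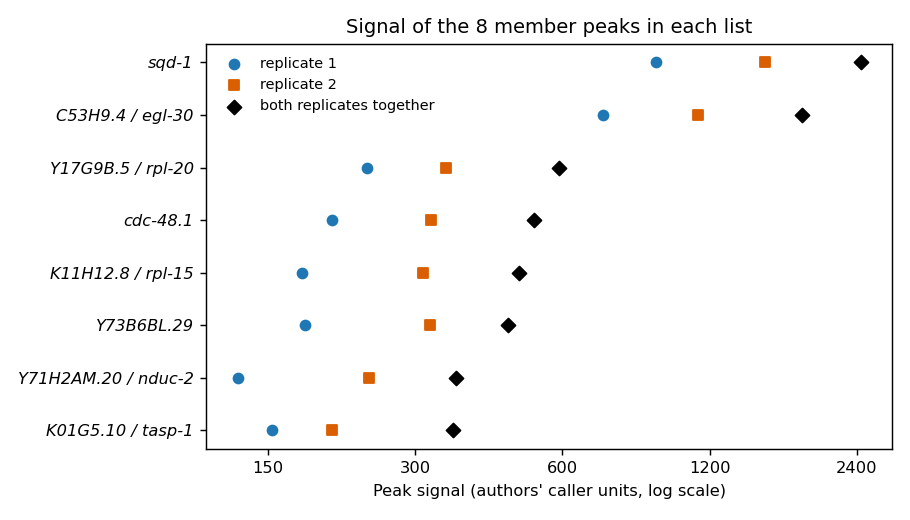
Signal of the 8 member peaks (authors' units, log scale) in the list of each replicate and in the pooled list, 1 row a peak. The lists are on no common scale, so positions compare within a list, and in each list the sqd-1 and egl-30 peaks (727 to 2453 over the lists) lie to the right of the other 6 (130 to 591).

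The order of the peaks changed little between the replicates. Among nuclear entries, sqd-1, egl-30 and cdc-48.1 held the same place (1, 2 and 5) in both, while Y17G9B.5 was 3 in replicate 1 and 4 in replicate 2. Y71H2AM.20 and tasp-1 moved furthest: Y71H2AM.20 was 19 and then 11, and tasp-1 was 10 and then 18. The log2 ratio of the replicate 2 value to the replicate 1 value was 0.41 to 0.89 at the 8 peaks, with a median of 0.71 and an SD across the peaks of 0.16. Over the 2358 nuclear peaks matched in both replicates the median log2 ratio was 0.66 with an SD of 0.65, so the offset between the lists at these peaks differed from that of the whole set by less than the spread among the peaks. Since the lists are on no common scale, the offset is not read as more or less binding in either replicate. With 2 replicates in 1 group there was no comparison between conditions to make.

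All 8 peaks, and so all 10 genes, were matched by the 2409 strongest entries of both replicates, against a background of 67.3% of promoter peaks. The choice by signal fixes this count, and nothing is read from it. The optimal-set summits come from both replicates together, so the replicate summits are not independent of them or of the choice, and their offsets are given as a description. They lay within 17 bp of the optimal-set summit at every peak, with a median offset of 4 bp in replicate 1 and 0.50 bp in replicate 2, beside medians of 18 bp and 12 bp over all matched nuclear peaks. The farthest was replicate 1 at tasp-1.

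The listed genes are not every gene at the top of the ranking. rpl-20, rpl-15 and nduc-2 hold the summit of a listed gene in their promoters but are not listed themselves. Nuclear peaks of comparable signal without a listed gene were those at him-19 (543), rpl-3 (521), W03F9.1 (399), cox-5A (374) and rpl-35 (369). Just below tasp-1 (358) came F36A2.7 (354), so the listed peaks end at no step in the signal.

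All 10 genes had the summit upstream of the start. Its median position relative to the start was -163.5 bp, and the distance ranged from 33 bp at Y73B6BL.29 to 724 bp at K01G5.10. Over all 2372 pairs of a nuclear summit and a promoter, the median position was -237.5, with quartiles at -402 and -136. The peak itself reached past the start at egl-30, C53H9.4, tasp-1, Y71H2AM.20 and Y73B6BL.29. For 7 of the 10 genes the start was the nearest one to the summit, the exceptions being C53H9.4, K01G5.10 and K11H12.8. A promoter summit of the optimal set occurs at 11.7% of all protein-coding genes, and since the 10 were chosen for having one, nothing is read from their count.

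**Figure D3:**
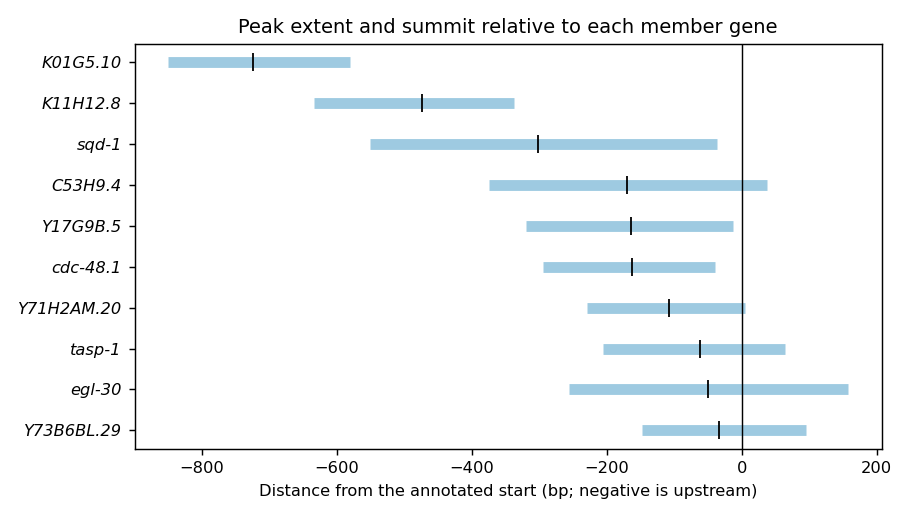
Extent of each member's peak (blue bar) and its summit (black tick) relative to the annotated start of the gene, in bp with negative values upstream. All 10 summits are upstream, from -33 at Y73B6BL.29 to -724 at K01G5.10.

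Promoters on both strands held 4 of the 8 peaks, those shared by Y17G9B.5 and rpl-20, K11H12.8 and rpl-15, Y71H2AM.20 and nduc-2, and tasp-1 and K01G5.10. Among all nuclear promoter peaks 37.8% lay in promoters on both strands. The 4 peaks on 1 strand were those at sqd-1, egl-30, cdc-48.1 and Y73B6BL.29, among them the pair of highest signal.

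Peak width ranged from 235 to 515 bp with a median of 284 bp. In the optimal set 88.2% of nuclear peaks have a width of exactly 350 bp, but only 2 of the 100 nuclear peaks of highest signal do, and the median of those 100 was 193.5 bp. The sqd-1 and egl-30 peaks were the only ones of the 8 wider than 350 bp. Their widths were also above the other 6 in each replicate, at 472 and 377 bp in replicate 1 and 482 and 398 bp in replicate 2. Width and signal come from the same caller and are not separate evidence.

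Other optimal-set peaks lay within 10 kb of 5 of the 8 summits, against a background of 51% of promoter peaks. The sqd-1 summit had 4 such neighbours, a number that 1.32% of promoter peaks reached. They were the Y73B6BL.29 peak, a pair of overlapping peaks 3665 and 3866 bp downstream in an intron of lsm-8, which encodes a Sm-like protein of the RNA processing machinery, with signals of 78.6 and 62.2, and a peak of 55.4 in an intron of seu-1 at 7122 bp. The lsm-8 pair was covered by the same entry in each replicate, at rank 1242 in replicate 1 and, with a signal of 51.2, at rank 929 in replicate 2. The seu-1 peak ranked 9580 in replicate 1 and 1282 in replicate 2, so it was among the 2409 strongest entries in replicate 2 and not in replicate 1. The Y73B6BL.29 summit, in the same cluster, also had 4 neighbours, the sqd-1 peak among them.

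At egl-30 there were 3 neighbours. A peak of 156 in the promoters of C53H9.2 and C53H9.3 lay 2925 bp upstream. A peak of 79.9 lay 1294 bp downstream in an annotated 5′ UTR of egl-30 itself. A peak of 88.3 lay 6445 bp downstream at emr-1, which encodes the nuclear envelope protein emerin. The upstream peak ranked 100 in replicate 1 and 320 in replicate 2. Y17G9B.5 had 1 neighbour, a peak of 189 at timm-17B.1, a mitochondrial import gene, 4427 bp away. Y71H2AM.20 had 1, a peak of 79.6 at Y71H2AM.6, 5040 bp away. No optimal-set peak lay within 10 kb of the summits at cdc-48.1, K11H12.8 or tasp-1, although 13, 9 and 11 weaker entries of the pooled list did.

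**Figure D4:**
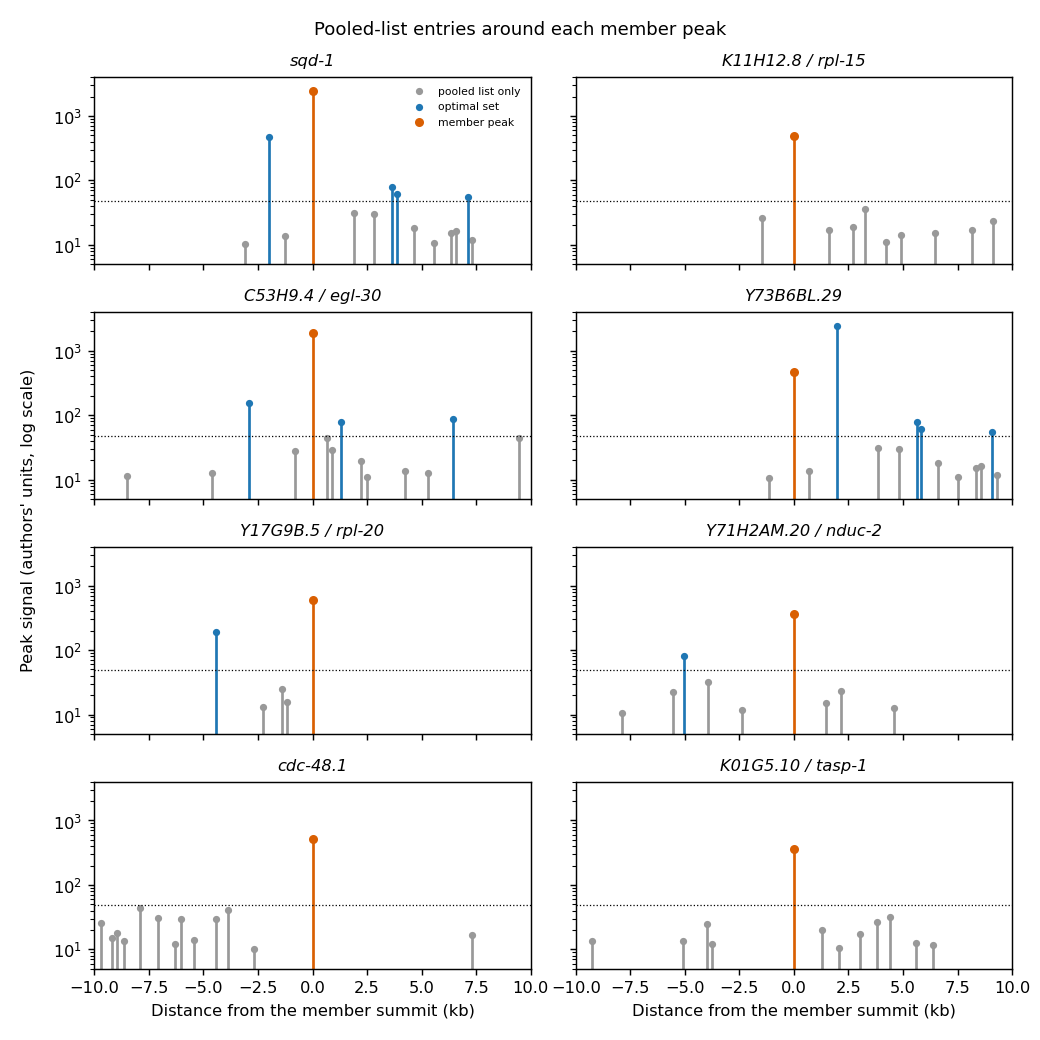
Entries of the pooled list within 10 kb of each member summit, by distance (kb, plus strand to the right) and signal (authors' units, log scale), with the member peak in orange, other optimal-set peaks in blue and weaker entries in grey. The dotted line marks 48.5, the lowest signal in the optimal set, and the panels of sqd-1 and Y73B6BL.29 show the same cluster from 2 viewpoints.

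Noncoding genes lay within 1 kb of 2 of the 8 summits, against 22.1% of promoter peaks, and all were snoRNA genes inside introns. C06A1.9 lies in an intron of cdc-48.1 at 10562952 to 10563064 on chromosome II, 506 bp from the summit. K11H12.13 (654229 to 654361) and K11H12.12 (653902 to 654030) lie in introns of rpl-15 on chromosome IV, 555 and 886 bp from the K11H12.8 summit. Most snoRNAs guide the chemical modification of ribosomal RNA, and many are made from introns of host genes. A snoRNA gene within 1 kb occurred at 3.61% of all promoter peaks. At the other 6 summits the nearest noncoding gene was farther off, from 5068 bp for the ncRNA M01D7.10 in an intron of egl-30 to 17628 bp for the piRNA 21ur-11429 at Y17G9B.5, and no tRNA or miRNA gene lay within 1 kb of any of the 8.

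Base composition divided the peaks. In the 300 bp around the summit, G and C made up 57% at egl-30, 48% at tasp-1 and 44.3% at sqd-1, against 30% to 36.7% at the other 5. The median over all nuclear promoter peaks was 35.7% with quartiles at 32.3% and 40%. A share as high as that of egl-30 was reached by 0.481% of promoter peaks. Stretches of at least 50 bp at 80% identity or more elsewhere in the genome occurred for 2 of the 8 windows, cdc-48.1 and Y71H2AM.20 with 1 stretch each, against 31.3% of promoter peaks. None of the 8 windows had such a stretch on the mitochondrial genome, where the peaks ranked above sqd-1 lie, and it was found for 0% of promoter peaks.

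Known sequence words were searched on both strands of the same 300 bp. The TATA box (TATAAA) was found in 4 of the 8 windows against 33.5% of promoter peaks, and the Sp1-like word GGGCGG in 3 (sqd-1, Y71H2AM.20 and tasp-1) against 10.5%. The trans-splice acceptor word TTTCAG was found in 3 against 41.4%, GAGAGA in 2 against 33%, and a run of 8 T in 1 against 29.9%. The B box of RNA polymerase III genes (GTTCGANNC), held by 3.25%, and a CGCG palindrome, held by 0.0601%, were found in none. A match is a description and not a site.

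The windows were then compared with each other, a step chosen after the data were seen. The longest run shared by any pair was the 15 bases GGTCTCGCAGCGACC, held by sqd-1 and egl-30, the pair of highest signal. Its middle lies 3 bp from the sqd-1 summit and 12 bp from the egl-30 summit. The word occurs 7 times in the WBcel235 genome. Of the 5 copies outside these peaks, 3 had an optimal-set summit within 150 bp, at distances of 13, 48 and 66 bp. Their signals were 62.8, 61.5 and 116, beside a median of 69.4 over the nuclear peaks of the optimal set. They were far below sqd-1 and egl-30, as are all other nuclear peaks, and since both were chosen by signal nothing is read from this. Another copy, on chromosome IV at 11142832, lay 26 bp from a pooled-list entry of 32.6 and 182 bp from an optimal-set summit, and the last, in an intron of plpr-1, had none within 1000 bp. For scale, 0.715% of the nuclear genome lies within 150 bp of an optimal-set summit. Among all promoter peaks 0.18% hold the word, a share that includes the sqd-1 and egl-30 peaks it was found in. Of the 1655 other promoter peaks 1 holds it (0.0604%), and none of the windows 1000 bp to the side does.

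K11H12.8 and Y71H2AM.20 share the 13 bases ACGCTCCACAATG, in opposite orientation, with the word's middle 13 and 17 bp from the summit. The word occurs 4 times in the genome, and all 4 copies lay within 17 bp of an optimal-set summit. The other 2 copies, which played no part in finding the word, lie at F36A2.7 (signal 354, 15 bp from the summit) and at the promoters of ifet-1 and rps-1 (signal 319, 2 bp). All 4 peaks rank between 22 and 36 in the optimal set. The word is in 0.241% of promoter peaks with these 2 members included, and in 2 of the 1655 other promoter peaks (0.121%).

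K11H12.8 and tasp-1 share AACACGCTCCAC, which overlaps that word, at 10 and 6 bp from the summit. It occurs 22 times in the genome. Of the 20 other copies, 2 had an optimal-set summit within 150 bp, at tba-2 (signal 149) and at eif-6 and pbs-2 (89.4). Outside the member peaks, the 12-base word thus had 2 of 20 copies near a summit and the 13-base word 2 of 2. Both words contain CGCTCCAC. The 12-base word too is in 0.241% of promoter peaks with its 2 members included, and in 0.121% of the others.

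That core, CGCTCCAC, was in 4 of the 8 windows, those of K11H12.8, tasp-1, Y71H2AM.20 and Y17G9B.5, at 8 to 45 bp from the summit. It was picked as the 8-base word in at least 4 of these windows that the fewest promoter peaks hold, so its count in them is fixed by the choice. In the whole set 4.33% of promoter peaks hold it with these 4 included, and 4.11% of the 1655 others do. Of windows 1000 bp to the side 0.661% hold it. Of the 100 strongest promoter peaks outside the 8, 7% hold it, and of the rest 3.92%. It has 1698 copies in the genome, of which 4.77% lie within 150 bp of an optimal-set summit. Of the 1694 copies outside the member peaks 4.55% do. The cdc-48.1 and Y73B6BL.29 windows shared no run of at least 12 bases with another member that had fewer than 100 genome copies.

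**Figure D5:**
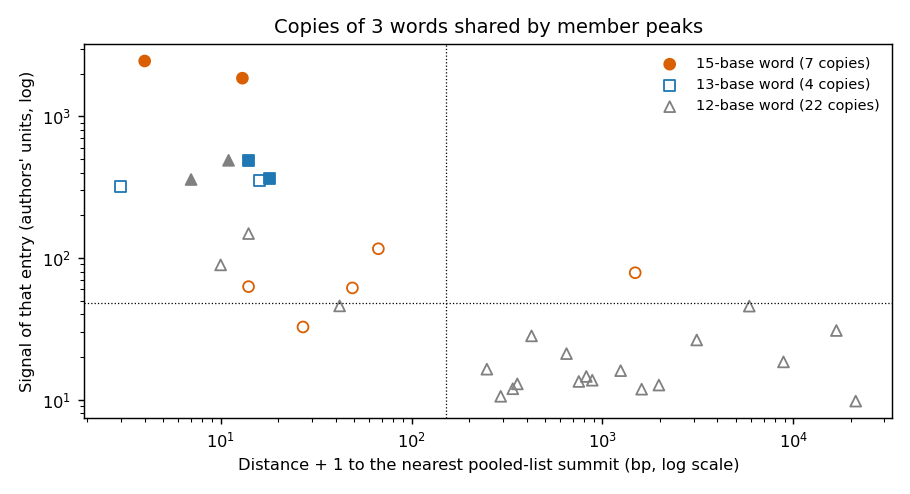
Every genome copy of 3 words shared by member peaks, by distance to the nearest pooled-list summit (plus 1, bp, log scale) and the signal of that entry (authors' units, log scale), with filled marks for the copies in the member peaks themselves. The dotted lines mark 150 bp and the lowest optimal-set signal, 48.5. All 4 copies of the 13-base word (squares) fall in the upper left, with 5 of the 7 of the 15-base word (circles) and 4 of the 22 of the 12-base word (triangles). For each word these counts include 2 copies in member peaks, which lie near a summit by construction. Another 13-base word, shared by the egl-30 and Y71H2AM.20 windows with 55 genome copies, is not drawn. None of its 53 other copies had an optimal-set summit within 150 bp.

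Genes related to the members were examined as lists, chosen with earlier results of these data known. Of the 21 G alpha subunit genes, 3 had a promoter summit (14.3%), beside 11.7% of all protein-coding genes. They were egl-30, gpa-9 (signal 69.7, at a summit shared with lin-25) and gsa-1, the Gs alpha gene (50.1). goa-1, the Go alpha gene, and the other gpa genes had none. The egl-30 signal was 26.6 times that of the next G alpha gene, a ratio that carries the choice of egl-30 by signal.

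Of 14 genes for CDC-48 and its cofactors, 6 had a promoter summit (42.9%), beside 11.7% of all protein-coding genes. After cdc-48.1 came ubxn-1 (signal 91.4, shared with tipn-1), ufd-2 (83.9), a ubiquitin ligase gene, and ubxn-2 (79.0). cdc-48.2, the paralogue of cdc-48.1, had none, nor did ufd-1, npl-4.1 or npl-4.2, whose products form the main substrate adaptor. Of 12 hnRNP-like RNA-binding protein genes, 8 had one (66.7%), beside the same 11.7%. After sqd-1 came fust-1 (215), hrpf-2 (153, shared with bli-6) and hrpu-1 (122). In each list the member had the highest signal. Each list holds a gene chosen for its signal, so the shares and that order carry the choice, and nothing is read from them.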

How the data were processed

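The data were ChIP-seq peak lists from 2 replicates of 1 group. Per the file list deposited with the samples, the entries of each list came from that replicate's alignment, or from both for the pooled list, on ce11, with 1 further file whose nature it does not state. The labels name a possible control experiment. No source used here names the aligner, the peak caller or its settings. Each list of a replicate, and the pooled list, holds 30000 entries. Column 7 is the authors' signal value and sets the order of peaks in each list. The −log10 q-value they deposited holds 1 value throughout the optimal set and was not used. Depth is unknown. The ce10 lists were not analysed here.

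No entry reached beyond a WBcel235 chromosome. Genes came from Ensembl release 115, product names and sequence from RefSeq's WBcel235. The summit is column 2 plus column 10, given 1-based. A replicate entry matched a peak when they overlapped by at least 1 bp, and the strongest was taken. Like sequence was searched with blastn 2.17.0. Words shared by members were sought as the longest run common to each pair of 300 bp windows, and those of at least 12 bases with fewer than 100 genome copies were followed. The steps were tested on simulated data. The genes, lists and motifs were chosen with earlier results of these data known, and no test was made on signal. Genes named are the members, those sharing a summit, those at neighbouring peaks or next in rank, and listed relatives. Genes at other copies of a word were named after their values were seen.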

Additional observations from a re-analysis of the deposited data

How the results depend on the processing

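The 10 genes kept a promoter summit in the more stringent peak set, with wider promoters, and in the list of either replicate alone, but 9 did with promoters of 500 bp upstream to 100 bp downstream and 7 when the nearest start alone counted. Of 66 recomputed values 52 stayed within the limits set for a change. Among those 52, the genes with a neighbouring peak numbered 5 within 5 kb and 9 within 20 kb, against 6 within 10 kb. The TATA box was found in 6 peaks with 500 bp windows, against 4. The values that moved past the limits follow. No noncoding gene lay within 500 bp of a summit (0 genes). The median width was 245 bp without replicate 1 and 236.5 bp without replicate 2. The median position of the summit was -159 bp without replicate 2, while without replicate 1 it stayed at -163.5 bp. The cause was not tested. In 100 bp windows the TATA box was found in 1 peak, GAGAGA in 1, and the Sp1-like word, the run of T and the trans-splice acceptor in 0, while in 500 bp windows the B box was found in 1. Smaller windows hold fewer matches by construction. Like sequence was found for 5 peaks with 30 bp at 90% identity and for 0 with 100 bp at 80%. With those shorter promoters 5 hnRNP-like genes had a summit. In the more stringent set, the 1204 strongest peaks, 3 copies of the 15-base word were near a summit. Without each replicate in turn 4 to 6 were, which stayed within the limits. The copies of the 13-base word stayed at 4 under the more stringent set, without either replicate and within 50 or 300 bp. All 4 lie within 17 bp of summits ranked 22 to 36, so neither the changed distances nor the stringent set could alter that count. The counts for both words include the 2 copies in member peaks. The settings for words were chosen after seeing the data. No paired analysis was possible because the samples form 1 group.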

Other observations

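Copies of the 15-base word with 1 mismatch were counted as well. The genome holds 69, of which 11 (15.9%) lay within 150 bp of an optimal-set summit, with signals from 50.3 to 139.9 and a median of 73.2. The median nuclear peak of the optimal set had a signal of 69.4. All 11 were below the lowest pooled signal at the 8 peaks, 358 at tasp-1. The 8 were chosen for high signal, so nothing is read from this. The egl-30 and Y71H2AM.20 windows share another run of 13 bases, with 55 genome copies. It lies 134 bp from the summit in both, and none of the 53 other copies had an optimal-set summit within 150 bp.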
